A study of Mus musculus with 6 samples.

Results

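The genes described here are the calpains and calpastatin of mouse skeletal muscle: Capn1, Capn2, Capn3, Capn5, Capn7, Capn15, the small subunit gene Capns1 and the inhibitor gene Cast. They were taken by symbol from the deposited table, 8 of its 24411 genes, and all 8 were among the 12892 genes with enough counts to be tested. The study compared RNA of the EDL (extensor digitorum longus), a hindlimb muscle of mostly fast-twitch fibres, between 3 mAktDKO mice and 3 control floxed mice, asking how loss of Akt in muscle alters it with age. All 6 mice were C57BL/6J, 50 weeks old, and carried floxed alleles of Akt1 and Akt2. Only the mAktDKO mice also carried Cre recombinase, driven by the promoter of a fast myosin light chain (Mlc1f). Deletion is therefore limited mostly to fast fibres, and other cells of the muscle, satellite cells among them, largely keep both genes. The methods describe male animals unless otherwise stated.

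Calpains are cysteine proteases of the cytosol that are switched on by calcium and cut their targets at few sites rather than degrading them. In muscle they act on proteins that anchor the sarcomere to the Z-disc and the membrane, and the ubiquitous calpains, paired with the small subunit, are held in check by calpastatin. The muscle calpain encoded by Capn3 binds titin, is not inhibited by calpastatin, and is the gene mutated in a limb-girdle muscular dystrophy.

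The stretch around the codon of the catalytic cysteine shows how the proteases relate, and is printed for the 5 members in which a pattern of the residues around it was found. Each run has 45 bases of coding sequence, 5′ to 3′ on the coding strand, from the GENCODE M21 transcripts, with the cysteine codon in capitals.
Capn1: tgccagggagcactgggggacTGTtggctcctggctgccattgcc
Capn2: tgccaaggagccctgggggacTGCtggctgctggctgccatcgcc
Capn3: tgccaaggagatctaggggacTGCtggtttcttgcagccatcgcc
Capn5: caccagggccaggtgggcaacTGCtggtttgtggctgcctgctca
Capn15: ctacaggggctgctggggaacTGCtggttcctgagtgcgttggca
The windows of Capn1 and Capn2 share 40 of 45 bases, those of Capn2 and Capn3 share 38, and those of Capn1 and Capn3 share 35. Capn5 and Capn15 share 31 bases with each other and between 26 and 29 with the other 3. In mm10 the codon lies at chr19:6013700-6013702 for Capn1 (exon 4 of 22, residue 115) and at chr1:182492863-182492865 for Capn2 (exon 3 of 21, residue 105). It lies at chr2:120482115-120482117 for Capn3 (exon 3 of 24, residue 129), chr7:98151866-98151868 for Capn5 (exon 3 of 13, residue 81) and chr17:25963249-25963251 for Capn15 (exon 4 of 12, residue 628). In spite of this likeness, no member had a word of 37 bases, the read length, in common with another calpain family gene, so a read that matches 1 calpain exactly fits no other.

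Total estimated counts were between 13738795 and 15445523 per mouse, and 3 counts, taken as the lowest level the depth can show, correspond to between 0.180 and 0.227 CPM (counts scaled to a common library size by TMM). This floor covers counting error only. Akt2, the targeted gene with the clearer loss, had 51.3, 49.1 and 52.7 CPM in the mAktDKO mice against 172, 133 and 143 CPM in the controls, with a log2 fold change of -1.55 and a standard error of 0.11 (adjusted p = 0.000923 by the quasi-likelihood test of edgeR, Benjamini-Hochberg adjusted). Without mAktDKO mouse 1, 2 or 3 it no longer passed 0.01 in this edgeR test (adjusted p = 0.0208, 0.0188 and 0.0165), while the log2 fold change stayed between -1.59 and -1.52. Akt1 had 58.9, 56.8 and 51.4 CPM against 66.4, 65.5 and 66.5 CPM, a log2 fold change of -0.25 that did not pass (standard error 0.080, adjusted p = 0.115 by the same edgeR test) and was -0.11 with library totals in place of TMM. Both genes had lower values in all 3 mAktDKO mice than in any control. Control mouse 2 stood apart from the other mice: the chi-square of its counts per degree of freedom was 26.2 and 25.4 against the other controls, which differed from each other by 10.2, and between 48.2 and 65.8 against the mAktDKO mice. Without it the log2 fold changes were -0.34 for Capn1, 0.017 for Capn2, -0.15 for Capn3, 0.18 for Capn5, -0.069 for Capn7, 0.023 for Capn15, 0.011 for Capns1 and -0.11 for Cast.

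Levels of different genes can be compared roughly per kb of exon, with the length taken over all annotated exons of a gene. Genes with many transcripts, such as Cast with 7 coding transcripts against 1 for Capn2, may thus read too low. On this scale the small subunit gene Capns1 stood highest, at 58.4 ± 1.69 CPM per kb (SD, n = 3) in the controls. Capn3 followed at 35.5 ± 1.30, Capn1 at 29.9 ± 2.41, Capn2 at 23.5 ± 0.917, Cast at 17.6 ± 0.432 and Capn7 at 13.6 ± 0.0935 CPM per kb. Capn5 and Capn15 were lower, at 1.31 ± 0.302 and 0.877 ± 0.0641 CPM per kb. Among the controls every one of these neighbours in the order was separated, since the lowest mouse for one gene lay above the highest for the next. In the mAktDKO mice Capn2 (24.3 ± 2.16 CPM per kb) and Capn1 (22.8 ± 1.17) changed places in the order of means, and their ranges, 22.5 to 26.7 and 21.5 to 23.8, overlapped.

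**Figure D1:**
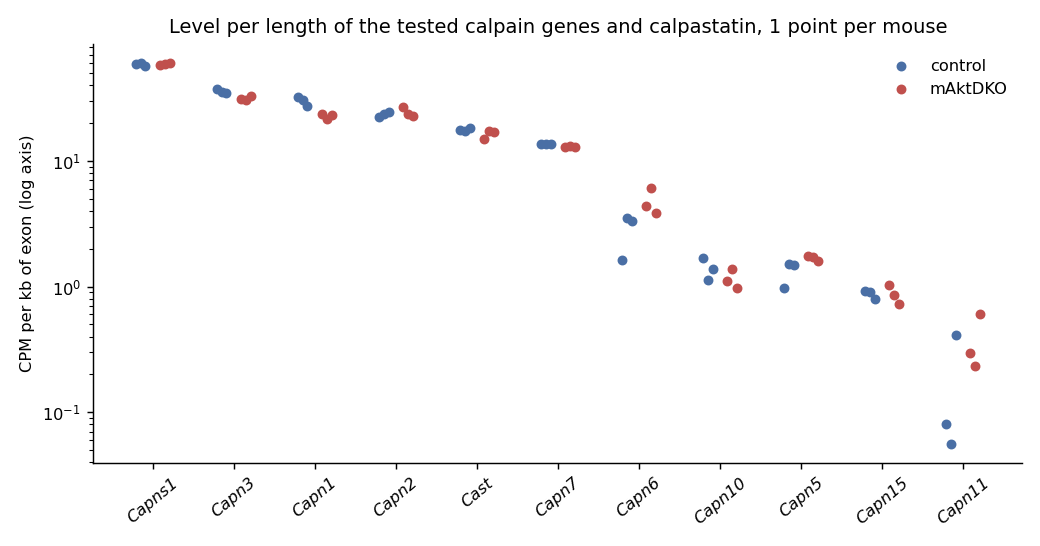
Level of each tested calpain gene and Cast in CPM per kb of exon on a log axis, with 1 point per mouse, control mice in blue and mAktDKO mice in red. Capns1 is highest in all 6 mice, Capn1 lies between 27.3 and 32.0 in the controls and between 21.5 and 23.8 in the mAktDKO mice, and Capn5 and Capn15 are near 1.

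No member passed the threshold of the comparison, an adjusted p under 0.01. This call was made for 3 of the 12892 tested genes, or 0.0233%, and an adjusted p under 0.05 was reached by 1.18% of genes and by 0 of the 8 members in edgeR's test. That share changed when 1 mouse was left out. With all mice 152 genes passed 0.05. The number was between 3 and 5 without any 1 of the mAktDKO mice, 26 without control mouse 3 and 388 without control mouse 4. A smaller group also lowers the power of the test, and these fits cannot separate that from dependence on 1 animal. At an unadjusted p under 0.05, reached by 24.5% of all tested genes (1693 of them lower and 1471 higher), stood 2 members, Capn1 and Capn3, both lower in the mAktDKO mice. The count of members was 1 without mAktDKO mouse 1 or 2 and without control mouse 2 or 4. With each mouse left out in turn, Capn1 had an unadjusted p under 0.05 in all 6 fits and Capn3 only without mAktDKO mouse 3. When library totals replaced TMM, the 2 members under this threshold were Capn1, lower, and Capn5, higher in the mAktDKO mice (adjusted p = 0.108 and 0.149 by edgeR's quasi-likelihood test), and Capn3 was not among them (adjusted p = 0.676). They were again Capn1 and Capn5 without control mouse 3. DESeq2's Wald test called 1 member, Capn1, as it did 341 of the 17360 genes with at least 1 count (1.96%), and limma-voom called 0. DESeq2 gave some of these genes, Capn15 among them, no adjusted p, so its share among the genes it adjusted is above 1.96%. Of the 8 members, 3 had higher and 5 had lower means in the mAktDKO mice. Their median log2 fold change was -0.039, beside 0.017 for all tested genes. With library totals in place of TMM all genes shifted upwards, to a median of 0.16, and 6 members then had higher and 2 lower means. On that scale the log2 fold changes were -0.25 for Capn1, 0.19 for Capn2, -0.046 for Capn3, 0.50 for Capn5, 0.070 for Capn7, 0.14 for Capn15, 0.15 for Capns1 and 0.035 for Cast. Relative to the median of all genes, 2 members were above and 6 below it under either scaling. The groups did not overlap for 4 members, 1 of them higher and 3 lower in the mAktDKO mice. Among all tested genes the groups were apart for 31.1%, made up of 14.6% higher and 16.6% lower. The 6 mice were separate samples by the labels, and the p-values measure the spread between them. Bulk RNA cannot tell fewer cells of a type from less RNA per cell.

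**Figure D2:**
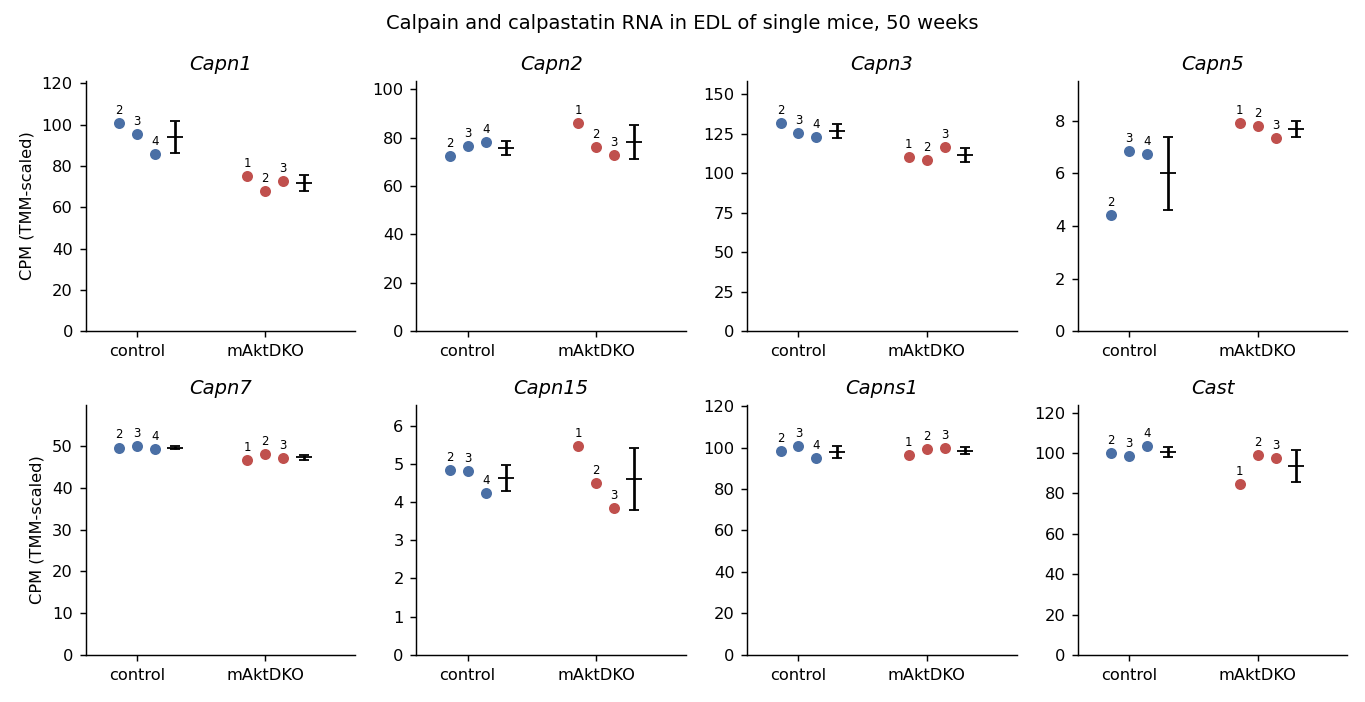
CPM of the 8 members in each mouse, with the mouse numbers of the table above the points and the mean ± SD (n = 3) beside them, each panel starting at 0. The groups are apart for Capn1, Capn3, Capn7 and Capn5, and overlap for Capn2, Capn15, Capns1 and Cast.

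Of the catalytic subunits that pair with Capns1, Capn1 was lower in the mAktDKO mice by point estimate and Capn2 was not. Capn1 encodes the large subunit of μ-calpain, active at micromolar calcium, and lies at chr19:5988545-6015897 on the minus strand. It had 74.9, 67.7 and 72.8 CPM in mAktDKO mice 1 to 3 and 100.9, 95.3 and 85.9 CPM in control mice 2 to 4, numbered as in the deposited table. Every mAktDKO mouse lay below every control. The means were 71.8 ± 3.69 and 94.0 ± 7.58 CPM (SD, n = 3 each), a log2 fold change of -0.39 (standard error 0.087, 95% interval -0.59 to -0.19), or 0.763 of the control level. It ranked 338 among the tested genes by p, and its adjusted p was 0.0590 in edgeR's quasi-likelihood test across all genes. This call turned with the tool, since DESeq2's Wald test gave -0.40 with an adjusted p of 0.00998. That value lies just under the threshold of 0.01, and DESeq2 adjusted over a different set of genes. In edgeR's own test without the filter on low counts the adjusted p was 0.0481, under 0.05 but not under 0.01. Over the alternatives that kept all mice, the adjusted p ran from 0.00998 to 0.108, and from 0.0472 to 0.258 with 1 mouse left out.

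Capn2, the large subunit of m-calpain, active at millimolar calcium, lies at chr1:182467260-182517608 on the minus strand. It had 86.1, 76.1 and 72.7 CPM in the mAktDKO mice against 72.5, 76.3 and 78.3 CPM in the controls. The groups overlapped, with mAktDKO mouse 1 highest of all 6. The means were 78.3 ± 6.98 and 75.7 ± 2.96 CPM (SD, n = 3 each), a log2 fold change of 0.049 (95% interval -0.15 to 0.25, adjusted p = 0.761 by edgeR's quasi-likelihood test), so a decrease as large as the estimate for Capn1 was outside its interval. Without mAktDKO mouse 1 the estimate for Capn2 was -0.026.

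Capns1, the regulatory subunit that both large subunits need for stability, lies at chr7:30186936-30198811 on the minus strand. Its levels were close in all 6 mice, with 96.4, 99.3 and 99.9 CPM in the mAktDKO mice against 98.3, 100.5 and 94.9 CPM in the controls. The values overlapped, and the means were 98.5 ± 1.84 and 97.9 ± 2.84 CPM (SD, n = 3 each). Its log2 fold change was 0.0092 with a 95% interval of -0.15 to 0.17 (adjusted p = 0.949, edgeR's quasi-likelihood test). Capns2, an intronless relative, had 1 count in 1 of the 6 mice.

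Capn3 encodes the muscle calpain, also called p94, and lies at chr2:120456019-120504913 on the plus strand, where its annotated extent overlaps Ganc on the same strand. Its 3 mAktDKO values were 110, 108 and 117 CPM, and its 3 control values were 132, 125 and 123 CPM. All mAktDKO mice lay below all controls. The means were 111.6 ± 4.29 and 126.8 ± 4.63 CPM (SD, n = 3 each), a log2 fold change of -0.18 (95% interval -0.35 to -0.014, adjusted p = 0.176 by edgeR's quasi-likelihood test). The change did not pass, and with library totals in place of TMM it was -0.046.

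The promoter of Capn3 is shown because it held the only match to a MEF2 motif, the site of a muscle transcription factor family, among the 14 RefSeq promoter windows of the 7 members with an entry. The window runs from 250 bases before to 50 bases after a RefSeq start site (GRCm38.p6, chr2:120463343-120463642, plus strand), and the capitals mark the motif.
Capn3 promoter: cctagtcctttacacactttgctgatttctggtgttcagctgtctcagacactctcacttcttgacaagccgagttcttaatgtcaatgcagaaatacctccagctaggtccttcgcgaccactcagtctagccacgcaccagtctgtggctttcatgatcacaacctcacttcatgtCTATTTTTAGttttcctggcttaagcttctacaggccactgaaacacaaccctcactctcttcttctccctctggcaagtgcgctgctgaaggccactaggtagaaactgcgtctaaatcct
The MEF2 motif was found in 3.19% of the 32851 promoter windows of this length in the table. A second Capn3 window, chr2:120476659-120476958, held none. The FoxO motif GTAAACA, searched on both strands as GTAAACA and TGTTTAC, occurred in 0 of the 14 windows and in 3.65% of all promoters. These matches describe the letters of the windows only.

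The remaining proteases differ in build from the classical calpains. Capn5, which lacks the calcium-binding end of the classical calpains and carries a C2 domain, lies at chr7:98121559-98178274 on the minus strand and overlaps Omp on that strand. It had 7.93, 7.79 and 7.34 CPM in the mAktDKO mice against 4.40, 6.86 and 6.73 CPM in the controls. The mAktDKO mice were all above the controls, and control mouse 2 lay well below the other controls. The means were 7.68 ± 0.308 and 6.00 ± 1.38 CPM (SD, n = 3 each), a log2 fold change of 0.36 (standard error 0.18, 95% interval -0.046 to 0.77, adjusted p = 0.247 by edgeR's quasi-likelihood test). Without control mouse 2 the estimate was 0.18.

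Capn7, a calpain with microtubule interacting and transport domains that binds ESCRT proteins, lies at chr14:31336638-31371986 on the plus strand. It had 46.8, 48.0 and 47.2 CPM in the mAktDKO mice against 49.7, 50.0 and 49.3 CPM in the controls. The groups were apart although they differed little, because both were narrow. The log2 fold change was -0.069 (95% interval -0.23 to 0.093, adjusted p = 0.572 by edgeR's quasi-likelihood test).

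Capn15, the mammalian relative of the fly gene small optic lobes, lies at chr17:25958364-25985796 on the minus strand. It had 5.45, 4.49 and 3.84 CPM in the mAktDKO mice against 4.82, 4.81 and 4.23 CPM in the controls. The mAktDKO mice spanned the whole range of the controls. At these low levels the log2 fold change of -0.0081 had a 95% interval of -0.41 to 0.40 (adjusted p = 0.983, edgeR's quasi-likelihood test), too wide to exclude a change of the size estimated for Capn1.

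Cast, the specific inhibitor of the 2 ubiquitous calpains, lies at chr13:74692368-74808810 on the minus strand, with Erap1 on the other strand. It had 84.5, 99.1 and 97.4 CPM in the mAktDKO mice against 99.9, 98.5 and 103.3 CPM in the controls. The groups overlapped, and mAktDKO mouse 1, the highest mouse for Capn2, was the lowest for Cast. The means were 93.7 ± 7.96 and 100.6 ± 2.46 CPM (SD, n = 3 each), a log2 fold change of -0.10 (95% interval -0.29 to 0.089, adjusted p = 0.475 by edgeR's quasi-likelihood test). Of its 37-base words, 6.30% also occur in other genes, so part of its reads may have been divided by the estimation of counts. Without mAktDKO mouse 1 the estimate for Cast was -0.034.

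**Figure D3:**
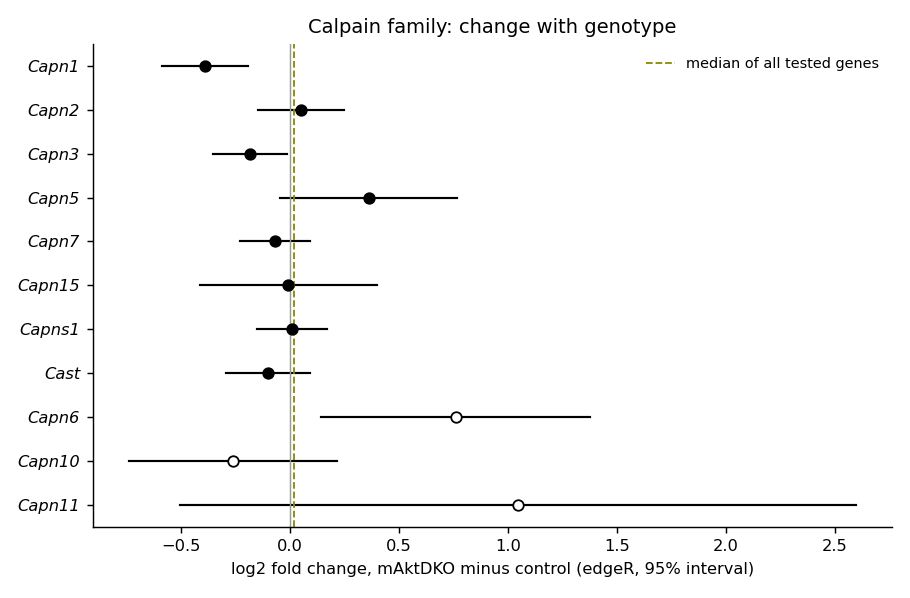
Log2 fold change of each tested calpain family gene and Cast, mAktDKO minus control, with the 95% interval of edgeR's quasi-likelihood fit. Filled points are the 8 members, open points other family genes, and the dashed line is the median of all tested genes (0.017). The intervals of Capn1, Capn3 and Capn6 do not reach 0.

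Ratios within a mouse do not depend on the scaling between mice, and the ratios of Capn1, Capn2 and Capn3 to Cast were computed from the counts. Of these, Cast inhibits the products of Capn1 and Capn2 and not that of Capn3. Capn1 to Cast was 0.886, 0.683 and 0.747 in the mAktDKO mice and 1.01, 0.968 and 0.832 in the controls. The groups overlapped through mAktDKO mouse 1 and control mouse 4, with a log2 difference of -0.28 (exact permutation test, two-sided p = 0.2, adjusted over the 3 ratios 0.5). Capn2 to Cast was 1.02 in mAktDKO mouse 1 and between 0.726 and 0.775 in the other 5 mice, a log2 difference of 0.15 (exact permutation test, two-sided p = 0.5) that was 0.0084 without mAktDKO mouse 1 and 0.23 without mAktDKO mouse 3. Capn3 to Cast was between 1.09 and 1.30 in the mAktDKO mice and between 1.19 and 1.32 in the controls, a log2 difference of -0.078 (exact permutation test, two-sided p = 0.5) that was -0.015 without mAktDKO mouse 2 and -0.14 without mAktDKO mouse 1. The sum of Capn1 and Capn2 to Cast was 1.90, 1.45 and 1.49 against 1.74, 1.74 and 1.59, again overlapping (log2 difference -0.073, exact permutation test, two-sided p = 0.7). Leaving out mAktDKO mouse 1 gave -0.20, and leaving out mAktDKO mouse 2 gave -0.0011. No ratio to calpastatin was apart between the groups, and 3 mice against 3 allow no two-sided p below 0.1.

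A pair of further ratios was chosen after the members' values had been seen, so they are a description. Capn1 to Capn2 was 0.870, 0.890 and 1.00 in the mAktDKO mice and 1.39, 1.25 and 1.10 in the controls. Every control held more Capn1 than Capn2 counts by a margin that no mAktDKO mouse reached, and the geometric mean ratio in the mAktDKO mice was 0.741 of that in the controls (log2 difference -0.43). The sum of Capn1 and Capn2 to their small subunit Capns1 was 1.67, 1.45 and 1.46 in the mAktDKO mice and 1.76, 1.71 and 1.73 in the controls, also without overlap (log2 difference -0.19). Of the summed level per kb of the 6 proteases, Capn1 made up 24.3 ± 0.610% in the mAktDKO mice and 28.5 ± 1.60% in the controls, while Capn2 made up 25.8 ± 1.73% and 22.5 ± 1.42% (SD, n = 3 each). Capn3 held the largest share in both groups, 33.3 ± 1.55% and 33.9 ± 0.584%. The sum itself was 96.9, 91.2 and 93.5 CPM per kb in the mAktDKO mice and 107, 105 and 102 CPM per kb in the controls.

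**Figure D4:**
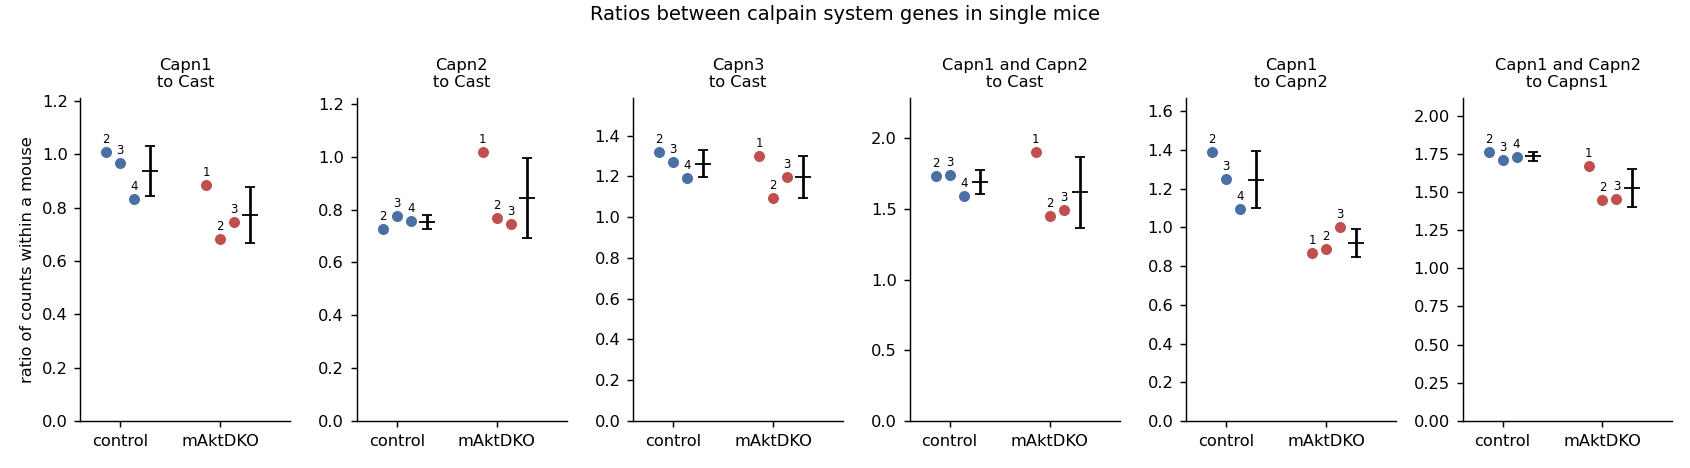
Ratios of counts within each mouse, with mouse numbers above the points and the mean ± SD (n = 3) beside them, each panel starting at 0. The 4 ratios to Cast overlap between control and mAktDKO mice, whereas Capn1 to Capn2 lies between 0.870 and 1.00 in the mAktDKO mice and between 1.10 and 1.39 in the controls.

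The members did not vary together across the 6 mice as 1 group. Over log2 CPM, Capn1 and Capn3 had a Pearson r of 0.947, and Capn1 and Capn7 an r of 0.841. Capn5 ran opposite to Capn1 (r = -0.799) and Capn3 (r = -0.850), and Capn2 opposite to Cast (r = -0.757). These values are descriptions over 6 libraries that hold the genotype difference within them.

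Genes with a pattern like that of a member were sought among 7522 tested genes with a mean of at least 10 CPM, by Pearson r of log2 CPM over the 6 mice. The nearest to Capn1 were Snx3 (r = 0.999), Uqcrq (r = 0.998), a subunit of respiratory complex III, and Adsl (r = 0.998), an enzyme of purine synthesis. An r over 0.9 with Capn1 was found for 863 of the genes. The nearest to Capn3 were S100a1 (r = 0.997), a calcium-binding protein of striated muscle, Phyh (r = 0.997) and Metap1 (r = 0.995), with 815 genes over 0.9. Capn2 and Cast had few genes like them, 26 and 25 over 0.9. The nearest to Capn2 were Pfkp (r = 0.986), Csrp1 (r = 0.980) and Kctd10 (r = 0.975), and the nearest to Cast were Nexn (r = 0.978), an actin-binding protein of the Z-disc, Ist1 (r = 0.971) and Fbxo42 (r = 0.961).

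The rest of the family was at low level or absent. Capn6, which lacks the catalytic cysteine, lies at chrX:143802231-143827414 and had 15.5, 21.7 and 13.8 CPM in the mAktDKO mice against 5.80, 12.5 and 11.9 CPM in the controls. All mAktDKO mice were above all controls, with control mouse 2 far below the others. Its log2 fold change was 0.76 (standard error 0.27, 95% interval 0.14 to 1.38, adjusted p = 0.141 by edgeR's quasi-likelihood test), and 0.48 without control mouse 2. Capn10 overlapped between the groups, at 3.74, 4.67 and 3.29 against 5.66, 3.79 and 4.61 CPM (log2 fold change -0.26, adjusted p = 0.461 by the same edgeR test), and the estimate was -0.10 without control mouse 2, -0.41 without mAktDKO mouse 2 and -0.12 with library totals. Capn11 had 12, 10 and 23 counts in the mAktDKO mice and 3, 2 and 14 in the controls, so it was tested only because of its higher mice (log2 fold change 1.05, adjusted p = 0.365 by the same edgeR test). Its estimate ran from 0.52 without mAktDKO mouse 3 to 2.38 without control mouse 4. Capn8 was at 0 counts in all 6 mice, and Capn9, Capn12 and Capn13 had at most 2 counts in any mouse, all under the floor of 3 counts.

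Lists of genes on which calpains act, or that work beside them, were described by their counts in the same edgeR fit. Of the 20 calpain substrates of the sarcomere and costamere, 5 had higher and 15 lower means in the mAktDKO mice, and their median was -0.11 on the log2 scale (-0.20 without mAktDKO mouse 3, and 0.024 with library totals, where the median of all genes was 0.16). None passed at an adjusted p under 0.05 in edgeR's test, and 6 of 20 had an unadjusted p under 0.05, all of them lower. Of all 12892 tested genes, 24.5% were under this threshold, 1693 of them lower and 1471 higher. The groups were apart for 1 higher and 8 lower genes, beside 14.6% and 16.6% of all tested genes. The 3 with the smallest p were Tnni2, the fast troponin I (3543.8 ± 467 CPM in the controls and 2347.3 ± 244 in the mAktDKO mice, log2 fold change -0.59, adjusted p = 0.0557), Flnc, filamin C of the Z-disc (-0.68, adjusted p = 0.0822), and Tpm1, a tropomyosin (-0.33, adjusted p = 0.0908, all by edgeR). DESeq2's Wald test called these 3 at adjusted p values of 0.000120, 0.00158 and 0.00303. The giant proteins titin and nebulin did not stand apart, since Ttn had a log2 fold change of -0.34 with overlapping groups and Neb one of 8.3e-05.

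Among 17 membrane repair genes, 11 had higher and 6 lower means, with a median of 0.080 that was 0.0062 without control mouse 2, 0.039 without mAktDKO mouse 1 and 0.22 with library totals. edgeR called 0 at an adjusted p under 0.05, and 4 of 17 had an unadjusted p under 0.05, 1 of them higher and 3 lower, a share near the 24.5% of all tested genes. The smallest p belonged to Cav3, caveolin 3 of the muscle membrane, with 31.4, 30.3 and 25.6 CPM in the mAktDKO mice against 41.9, 42.5 and 38.0 CPM in the controls. The groups were apart (log2 fold change -0.49, adjusted p = 0.0540 by edgeR, 0.00640 by DESeq2). Chmp4b, an ESCRT-III subunit, and Trim72, a membrane patch nucleator also called MG53, were next at -0.29 (adjusted p = 0.0795) and -0.33 (adjusted p = 0.0949, edgeR). Dysf, dysferlin, which calpains cut on membrane injury, overlapped at 143, 134 and 130 CPM against 113, 171 and 127 CPM.

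The lysosomal cathepsins and the cystatins, inhibitors of cysteine proteases, had 11 of 14 higher means (median 0.12, 0.072 without control mouse 2 and 0.26 with library totals). edgeR called 0 of them at an adjusted p under 0.05, and 3 of 14 had an unadjusted p under 0.05, all of them higher. Among all 12892 tested genes, 24.5% were under it in either direction and 1471 were under it and higher. Ctsl, cathepsin L, had 121, 127 and 128 CPM in the mAktDKO mice against 102, 96.4 and 94.2 CPM in the controls. Its groups were apart (log2 fold change 0.36, adjusted p = 0.0540 by edgeR, 0.00981 by DESeq2). Ctsh (0.55, adjusted p = 0.0956) and Ctsc (0.41, adjusted p = 0.106) followed in edgeR's test. Of 11 tested caspases and their regulators, 10 had higher means, beside 6762 of all 12892 tested genes. Their median was 0.29, or 0.23 without control mouse 2 and 0.43 with library totals. edgeR called 0 of them at an adjusted p under 0.05. An unadjusted p under 0.05 was found for 2 of 11, both higher, beside 1471 of all 12892 tested genes. The smallest p values were those of Xiap, a caspase inhibitor (0.29, adjusted p = 0.119), Casp12 (0.48, adjusted p = 0.188) and Apaf1 (0.33, adjusted p = 0.222, all by edgeR).

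**Figure D5:**
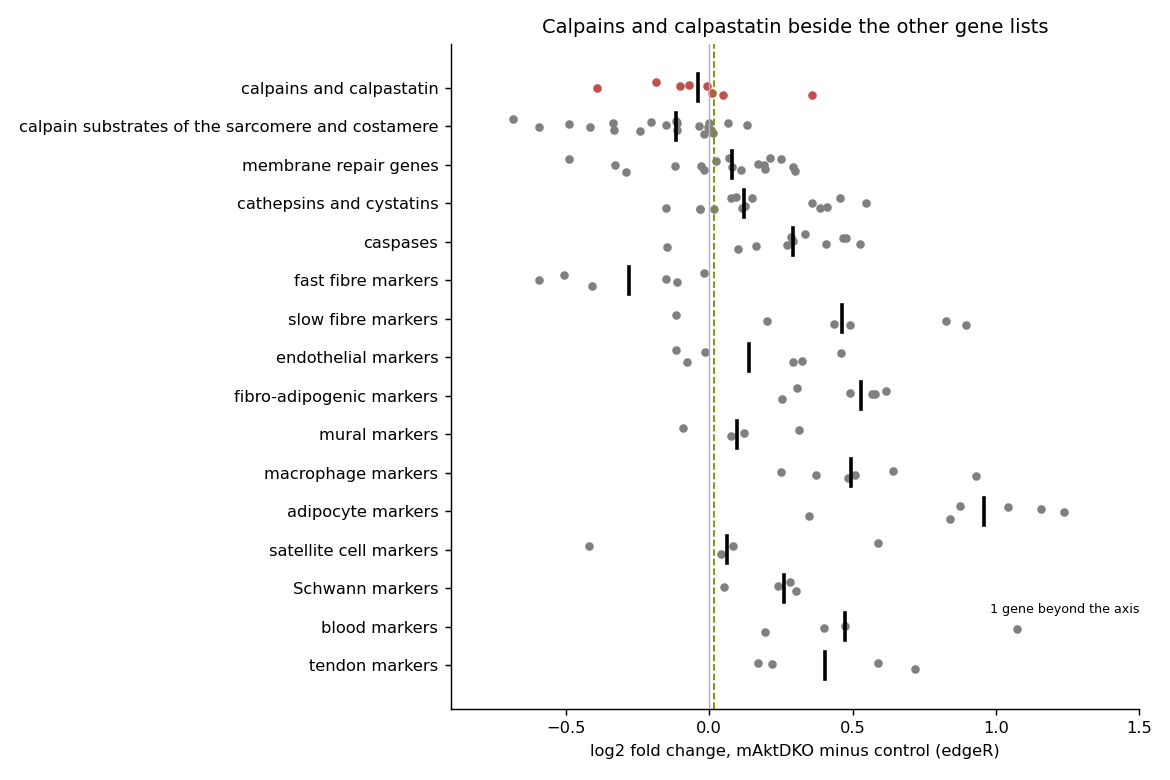
Log2 fold change of each tested gene of the lists, mAktDKO minus control, with 1 point per gene, the 8 members in red, a bar at each list's median and a dashed line at the median of all tested genes. The members' median is -0.039, the fast fibre markers' -0.28 and the adipocyte markers' 0.96, and 1 blood marker lies beyond the axis.

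Levels of markers of the fibre types and of other cells are given here for the same mice, and their part in the values of the calpains was not tested. The 6 fast fibre markers, which define this muscle, summed to between 75539 and 84171 CPM in the mAktDKO mice and between 84797 and 92821 CPM in the controls, with 0 of 6 higher and a median of -0.28. Of these 6, Tnni2, Tnnt3 and Actn3 are also among the 20 calpain substrates, so both lists rest in part on the same 3 genes. The smallest p values were those of Myh1 (log2 fold change -0.51, adjusted p = 0.0539), Tnni2 and Pvalb (-0.41, adjusted p = 0.0966, edgeR). These 3 were the fast fibre markers with groups apart. Myh4, the largest part of the sum, overlapped, with means of 50609 CPM in the controls and 49979 CPM in the mAktDKO mice (log2 fold change -0.018). Tnnt3 (-0.15) and Actn3 (-0.11) overlapped as well. The slow fibre markers summed to 426 to 915 CPM against 363 to 580 CPM (5 of 6 higher, median 0.46, 0.28 without mAktDKO mouse 2 and 0.73 without control mouse 3). Fibro-adipogenic markers summed to 18334 to 21775 CPM against 7310 to 18434 CPM, with control mouse 2, the lowest mouse for Capn5 and Capn6, also the lowest here (6 of 6 higher, median 0.53). Their median was 0.27 without control mouse 2 and 0.33 without mAktDKO mouse 2. Macrophage markers summed to 84.1 to 107 CPM against 51.8 to 90.5 CPM (6 of 6 higher, median 0.50), with control mouse 2 again the lowest and a median of 0.25 without it. Adipocyte markers summed to 182 to 323 CPM against 155 to 211 CPM (6 of 6 higher, median 0.96). The sum of mAktDKO mouse 3 lay within the range of the controls. With 1 mouse left out, the adipocyte median ran from 0.64 (without mAktDKO mouse 2) to 1.30 (without mAktDKO mouse 3). The medians were 0.14 for endothelial, 0.099 for mural, 0.064 for satellite cell, 0.26 for Schwann, 0.47 for blood and 0.40 for tendon markers. With library totals, where the median of all genes was 0.16, the medians were -0.15 for fast fibre, 0.28 for endothelial, 0.24 for mural, 0.20 for satellite cell and 0.40 for Schwann markers. With each mouse left out in turn, the median ran from 0.076 (without control mouse 4) to 0.23 (without control mouse 3) for endothelial and from -0.0011 (without mAktDKO mouse 1) to 0.15 (without control mouse 4) for mural markers. It ran from -0.045 (without mAktDKO mouse 2) to 0.19 (without control mouse 4) for satellite cell and from 0.18 (without mAktDKO mouse 1) to 0.72 (without mAktDKO mouse 3) for blood markers. No marker was at 0 counts in all 6 mice. The blood gene Hbb-bs was the 1 marker of these lists to pass an adjusted p under 0.05 in edgeR's test. It had 370, 154 and 146 counts in the mAktDKO mice and 0 in each control. Its reads may be divided with a near-identical neighbour, Hbb-bt. That gene had 364, 271 and 142 counts in the mAktDKO mice against 189, 180 and 119 in the controls. Hbb-bs lies 5.65 Mb from the member Capn5 on chr7, and the cause of its difference was not tested.

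The tested genes within 1 Mb of a member, looked at after the members' values were known, did not all move as it did. Around Capn1, 19 of 76 neighbours were higher and 57 lower (median -0.12), and around Capn15, itself at -0.0081, 19 of 48 were higher with the same median of -0.12. Of all 12892 tested genes, 6762 were higher. Around Capn3, 17 of 40 were higher (median -0.037), and around Capn5, 10 of 18 (median 0.047).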

How the data were processed

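EDL RNA of 3 mAktDKO and 3 control floxed mice was sequenced in strand-specific libraries with paired reads of 37 bases. The deposited values are expected counts: the authors mapped reads to mm10 with STAR and estimated gene counts with RSEM, without scaling between mice. The submitters' processing notes give STAR 2.6.1b and RSEM 1.3.1. The study's methods name another STAR release. The control columns bear the numbers 2 to 4, but the labels number these samples 1 to 3, and columns therefore stand for groups. The number of unused sample columns was 0.

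Counts were rounded to whole numbers, filtered with filterByExpr at a minimum count of 10 and normalised by TMM. Genotypes were compared by the quasi-likelihood test of edgeR 4.0.16 in R 4.3.3. p-values were adjusted by Benjamini-Hochberg over all 12892 tested genes, and genes were called at an adjusted p under 0.01. Within-mouse ratios used exact permutation tests. Log2 CPM values used a prior count of 2. The steps were tested on simulated data. Exon lengths, positions and transcripts came from GENCODE M21 (mm10), and promoters from RefSeq.

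Named genes comprise the 8 members, Akt1 and Akt2, the other family genes with at least 1 count, at most the 3 genes of smallest p in each other list, and the 3 genes most like Capn1, Capn2, Capn3 and Cast. Ttn, Neb, Dysf, Myh4, Tnnt3, Actn3 and Capn8 were added after their values were seen. The members and lists were chosen with earlier results of these data known. Capn14 was not analysed here. Alternatives tried were scaling by library totals, by the upper quartile or by DESeq2 size factors, other filters, DESeq2 1.42.0, limma-voom (limma 3.58.1), a threshold of 0.05, Capns1 summed with Capns2, and leaving out each mouse. The ratios without Cast and the neighbouring genes were added after seeing the data. Comparison of any 2 columns gave a chi-square per degree of freedom of at least 7.22, so no library was a copy of another.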

Additional observations from a re-analysis of the deposited data

How the results depend on the processing

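No paired analysis was possible because no label ties a control column to a numbered sample, and none marks a number as a shared litter or batch. DESeq2's Wald test called 1 member in place of 0 (Capn1, -0.40, adjusted p = 0.00998, just under 0.01) and 5 genes of the pathway lists in place of 0 (Tnni2, Flnc, Tpm1, Cav3 and Ctsl), and 341 of 17360 genes in place of 3 of 12892. DESeq2 fitted these 17360 genes but gave some, Capn10, Capn11 and Capn15 among them, no adjusted p, so the totals are not alike. Without a filter 32 of 17360 genes were called, and at an adjusted p under 0.05 edgeR called 152. With 1 mouse left out the count at 0.01 was between 0 and 8. The count at 0.05 was 4, 3 and 5 without mAktDKO mice 1, 2 and 3, and 145, 26 and 388 without control mice 2, 3 and 4. With library totals the median of all genes moved from 0.017 to 0.16, and Capn7 (0.070), Capn15 (0.14) and Cast (0.035) turned positive. Capn1 was then -0.25, Capn2 0.19 and Capns1 0.15. Relative to that median no member changed direction. With 1 mouse left out, Capn2 was between -0.026 and 0.084, Capn15 between -0.15 and 0.088, and Capns1 between -0.016 and 0.027, while the sign of Capn1 (-0.45 to -0.34), Capn3 (-0.23 to -0.15), Capn5 (0.18 to 0.47), Capn7 (-0.082 to -0.061) and Cast (-0.15 to -0.034) was kept. The cause was not tested. In edgeR's test Capn1 had an adjusted p of 0.0472 without control mouse 4 and of 0.0481 without the filter. The median of the calpain substrates was 0.024 with library totals. Depth limits the genes of few counts, among them Capn5, Capn10, Capn11 and Capn15, and 3 mice against 3 allow no exact p below 0.1.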
